A study of Mus musculus with 14 samples.

Results

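The late distal regions are stretches of open chromatin, away from gene starts, that were first called in both libraries of a time point 48 h after GATA6 was induced in mouse embryonic stem (ES) cells. They number 5923 of 102167 distal regions on the 19 autosomes, which is 5.80% of them. Members were selected on the peak calls themselves. Overlapping peaks of all 14 peak lists were merged into 121891 regions, and a region was kept if its midpoint lay over 1 kb from every protein-coding transcription start site (TSS), if it was called in neither 0 h library and in both 48 h libraries, and if 48 h was the first time point with a call in both libraries. Counts and peak scores of the members at these time points therefore describe the selection and carry no test.

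The cells were KH2 mouse ES cells, given as strain C57BL/6 in the labels, that carry a GATA6-DSREd2 transgene under a tetracycline response element (TRE), so that doxycycline (Dox) switches it on. Every library came from this line, the 0 h libraries included. Cells at 0 h were grown in 2i medium with LIF and had no Dox, while induced cells were in serum medium with LIF and 1 µg/mL Dox, with collections at 2, 4, 8, 16, 24 and 48 h. For 16, 24 and 48 h, Dox was given for 12 h and withdrawn after that. Medium and induction changed together, and their parts in the gain of a call cannot be told apart. Each time point had 2 libraries of 50000 cells, assayed by ATAC-seq, in which a transposase inserts adapters into accessible DNA. The lists held 55588 to 65073 peaks each and no read counts. The read totals that the study gives per library were not used here, the reads behind a single call are unknown, and a region without a call may have been accessible below the calling threshold. Replicate experiments of the study are described as independent, without saying whether the ATAC-seq libraries of a time point came from separate cultures.

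GATA6 is the zinc finger factor that directs cells of the early embryo to the primitive endoderm (PrE), the epithelium that goes on to form visceral and parietal endoderm and to line the yolk sac. It binds GATA motifs, also where they lie on nucleosomes, and switches on further factors, among them GATA4, SOX17 and SOX7. Regions far from a TSS that become accessible in a differentiating cell often act as enhancers, and the motifs in them show which factors could bind.

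Sequences of 5 members with among the highest peak scores at 48 h are shown first, as the 200 bases around the region's centre in GRCm38 on the plus strand, read from the RefSeq genome sequence. Capitals mark GATA motifs (AGATAA or AGATAG or TGATAA or TGATAG) and SOX motifs (NNCAANG with A or T at each N), on either strand. Each was named for the gene with the nearest protein-coding TSS.
Fbxo21 region (chr5:117997513-117997712): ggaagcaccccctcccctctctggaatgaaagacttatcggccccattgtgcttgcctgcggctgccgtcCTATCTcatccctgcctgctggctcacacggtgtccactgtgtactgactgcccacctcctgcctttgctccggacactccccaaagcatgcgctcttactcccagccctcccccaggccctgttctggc
E2f7 region (chr10:110713589-110713788): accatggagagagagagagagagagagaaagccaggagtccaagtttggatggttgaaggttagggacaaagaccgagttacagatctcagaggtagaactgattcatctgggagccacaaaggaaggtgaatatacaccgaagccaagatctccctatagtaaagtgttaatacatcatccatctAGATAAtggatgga
Dnase1 region (chr16:4029605-4029804): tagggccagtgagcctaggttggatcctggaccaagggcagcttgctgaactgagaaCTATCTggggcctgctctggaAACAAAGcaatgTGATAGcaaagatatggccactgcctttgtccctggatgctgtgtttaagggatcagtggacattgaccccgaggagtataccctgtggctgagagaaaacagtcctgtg
Gpr21 region (chr2:37540174-37540373): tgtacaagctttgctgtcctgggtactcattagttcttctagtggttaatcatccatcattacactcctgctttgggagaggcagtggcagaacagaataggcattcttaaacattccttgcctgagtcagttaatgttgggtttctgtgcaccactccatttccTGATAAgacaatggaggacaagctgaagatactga
Cald1 region (chr6:34760937-34761136): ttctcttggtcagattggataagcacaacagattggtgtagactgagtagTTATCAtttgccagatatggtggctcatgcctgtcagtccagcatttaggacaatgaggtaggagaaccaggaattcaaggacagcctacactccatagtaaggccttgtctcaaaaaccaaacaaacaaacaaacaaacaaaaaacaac
All 5 windows held a GATA motif, and the Dnase1 window also held a SOX motif. Of all members, 56.6% held a GATA motif and 35.2% a SOX motif. The next sequences are shown because they hold several motifs or lie at endoderm genes, and they were chosen after their values were seen. The Ccn1 window held more GATA motifs than any other window described among those with the highest scores. The other two are the highest scoring members of Ihh, a hedgehog ligand made by visceral endoderm, and of Gata4.
Ccn1 region (chr3:145686087-145686286): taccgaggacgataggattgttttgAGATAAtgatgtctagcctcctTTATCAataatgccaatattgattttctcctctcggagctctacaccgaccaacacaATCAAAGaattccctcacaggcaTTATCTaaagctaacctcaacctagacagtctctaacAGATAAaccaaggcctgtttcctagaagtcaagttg
Ihh region (chr1:74949954-74950153): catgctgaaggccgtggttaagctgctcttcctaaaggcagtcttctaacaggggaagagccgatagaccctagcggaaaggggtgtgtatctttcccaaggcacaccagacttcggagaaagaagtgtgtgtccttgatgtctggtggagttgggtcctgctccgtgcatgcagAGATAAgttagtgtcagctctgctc
Gata4 region (chr14:63239495-63239694): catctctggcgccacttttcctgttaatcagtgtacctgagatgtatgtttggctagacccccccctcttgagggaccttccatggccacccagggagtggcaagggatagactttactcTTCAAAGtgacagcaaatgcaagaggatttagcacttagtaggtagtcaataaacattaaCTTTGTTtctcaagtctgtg
The Ccn1 window held 4 GATA motifs and 1 SOX motif, the Ihh window 1 GATA motif, and the Gata4 window 2 SOX motifs and no GATA motif.

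The late regions were the most numerous class of newly called distal regions under the rule, which counts regions with earlier calls in a single library as late. Of 15838 distal regions called in neither 0 h library and in both 48 h libraries, 1796 (11.3%) were first called in both libraries at 2 h, 3584 (22.6%) at 4 or 8 h, 4535 (28.6%) at 16 or 24 h and 5923 (37.4%) at 48 h. Without the members that had an earlier single-library call, 3801 late regions remained, which is 24.0% of the newly called regions and fewer than in the 16 or 24 h class. With 1 library per time point in place of 2, the late class was 33.3% of newly called regions by replicate 1 and 33.6% by replicate 2. At the edges of the rule, the members nearest to a TSS lay 1009 bp from that of Robo3 and 1010 bp from that of Tcta, and the closest regions left out lay 1000 bp from that of Gmeb1 and 999 bp from that of Hrh2. A further 634 regions met every other criterion within 1 kb of a TSS, and 342 distal regions failed by a call in 1 of the 0 h libraries. Another 6351 distal regions had a call in 1 of the 48 h libraries, none at 0 h and none in both libraries of any time point.

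Part of the members had been called before 48 h in a single library, which the rule allows. It bars members from a call in both libraries of any time point before 48 h, and from any 0 h call. All distal regions carry no such bar, so the lower shares of members below follow from the selection. At 2 h, 63 members (1.06%) were called in replicate 1 and 112 (1.89%) in replicate 2. These libraries called 40.2% and 43.3% of all distal regions. At 4 h the members called were 109 (1.84%) and 159 (2.68%), beside 41.3% and 44.0% of all distal regions. At 8 h they were 223 (3.76%) and 190 (3.21%), beside 41.1% and 40.2%. At 16 h replicate 1 called 231 members and replicate 2 called 496, the widest gap between libraries of a time point. Replicate 2 of 16 h also had the longest peak list and called 46.0% of all distal regions, against 41.6% in replicate 1. At 24 h, 737 members (12.4%) were called in replicate 1 and 903 (15.2%) in replicate 2, while these libraries called 36.1% and 37.4% of all distal regions. Single calls of members numbered 1640 (27.7%) at 24 h and 175 (2.95%) at 2 h, and 3801 members (64.2%) had no call in any library before 48 h. The class therefore holds regions without any earlier call together with regions that single libraries had called earlier. Shares of all distal regions with a single call at a time point, or with no call before 48 h, were not taken. The counts of single calls therefore describe the class and cannot be read as a trait of the members.

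**Figure D1:**
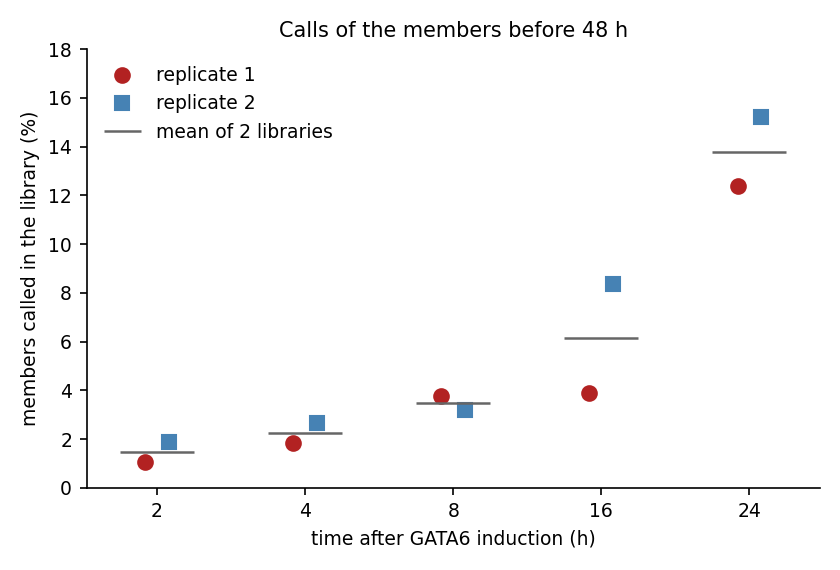
Percent of the 5923 members called in each library from 2 to 24 h after induction (x axis, hours). Circles are replicate 1, squares are replicate 2, and grey lines are their mean. Both 24 h libraries, at 12.4% and 15.2%, lie above every earlier library.

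Late regions had weaker 48 h peaks than regions called earlier. Their median score percentile, the rank of a peak's score within its own 48 h list, was 34.1 in replicate 1 and 34.5 in replicate 2. Regions first called at 16 or 24 h had medians of 54.7 and 55.8, those first called at 4 or 8 h 56.8 and 57.6, and those first called at 2 h 58.4 and 59.7. Distal regions present in each 0 h and 48 h library had medians of 58.7 and 58.9. The gap of 20.9 percentile points between late regions and the 16 or 24 h class exceeded the difference between libraries, and it came from the same 48 h calls that chose the members, so it is a description. Peaks of late regions were also narrower, with median widths of 323 bp and 340 bp at 48 h against 422 bp and 438 bp for the 2 h class. Position differed little: the median distance to a TSS was 24.7 kb for late regions and 24.0 kb for all distal regions, and 47.9% of late regions lay in introns of protein-coding genes against 47.3%.

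**Figure D2:**
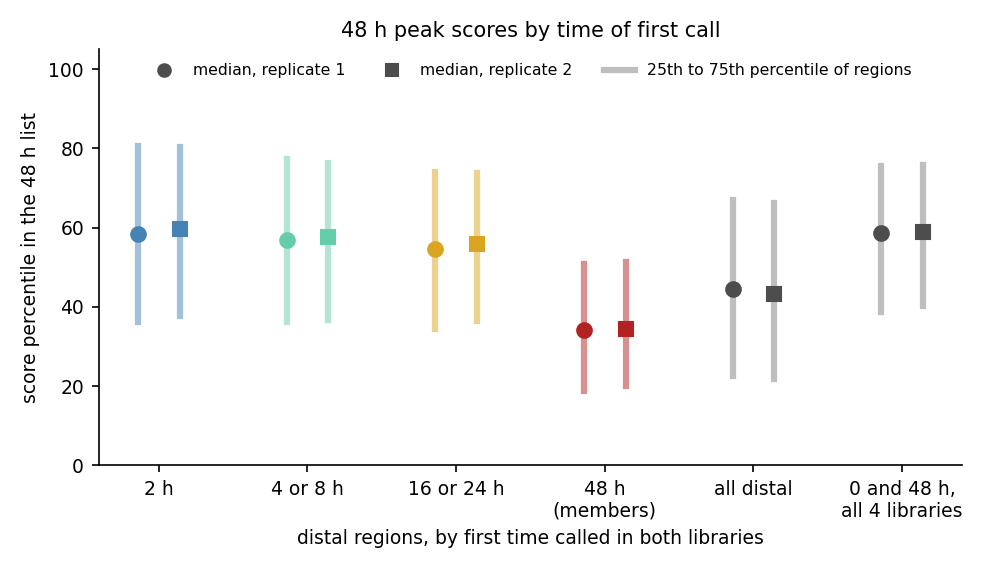
Score percentile within each 48 h peak list (y axis) for distal regions grouped by the first time called in both libraries, with all distal regions and those present in each 0 h and 48 h library. Symbols are medians over regions per library and bars span the 25th to 75th percentile. The members, at 34.1 and 34.5, lie below each of the other groups.

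Sequence took no part in choosing the members, and GATA motifs were common in late regions. They lay in 56.6% of members against 39.5% of all distal regions and 26.5% of distal regions present in each 0 h and 48 h library. The permuted motif (AAGTAA or AAGTAG or TAGTAA or TAGTAG) lay in 26.5% of members and 22.8% of all distal regions. The GATA share was lower in late regions than in the 4 or 8 h class, at 71.2%, and this held with 1 library per time point, at 54.8% and 54.0% against 62.5% and 63.0%. The share was close to that of the 16 or 24 h class, at 56.2%, made up of 60.8% in the 16 h regions and 50.5% in the 24 h regions. Against the 2 h class, at 68.3%, the difference of -11.7 percentage points did not hold with 1 library per time point: the 2 h share was then 53.8% and 53.6%, and the difference was 1.03 and 0.359 points with the opposite sign. With 2 values against 2, an exact permutation test cannot give a two-sided p below 0.333, and regions are not replicates of a condition, so no p is given for motif shares. Windows with 2 or more GATA motifs were 22.8% of late regions, 22.9% of the 16 or 24 h class, 39.9% of the 4 or 8 h class and 32.1% of the 2 h class. With 1 library per time point they were 22.0% and 21.0% of late regions against 32.7% and 33.5% of the 4 or 8 h class, and 22.0% and 22.8% of the 2 h class, so the difference from the 2 h class did not hold.

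SOX motifs were more frequent in late regions, at 35.2% against 28.2% of the 2 h class and 28.3% of all distal regions, and at 34.5% and 33.9% against 25.4% and 26.2% with 1 library per time point. The share was 32.8% in the 16 or 24 h class, with 36.2% at 16 h and 28.5% at 24 h, so it did not increase steadily with time. The permuted GATA motif was also most frequent in late regions, at 26.5%. It lay in 23.7% of the 2 h class, 24.2% of the 4 or 8 h class and 23.4% of the 16 or 24 h class. The ratio of late regions to the 16 or 24 h class was 1.07 for SOX and 1.14 for the permuted motif. When the whole region was searched the sign turned, to -10.9 points against the 2 h class, whose regions were wider, with a median of 640 bp against 384 bp.

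**Figure D3:**
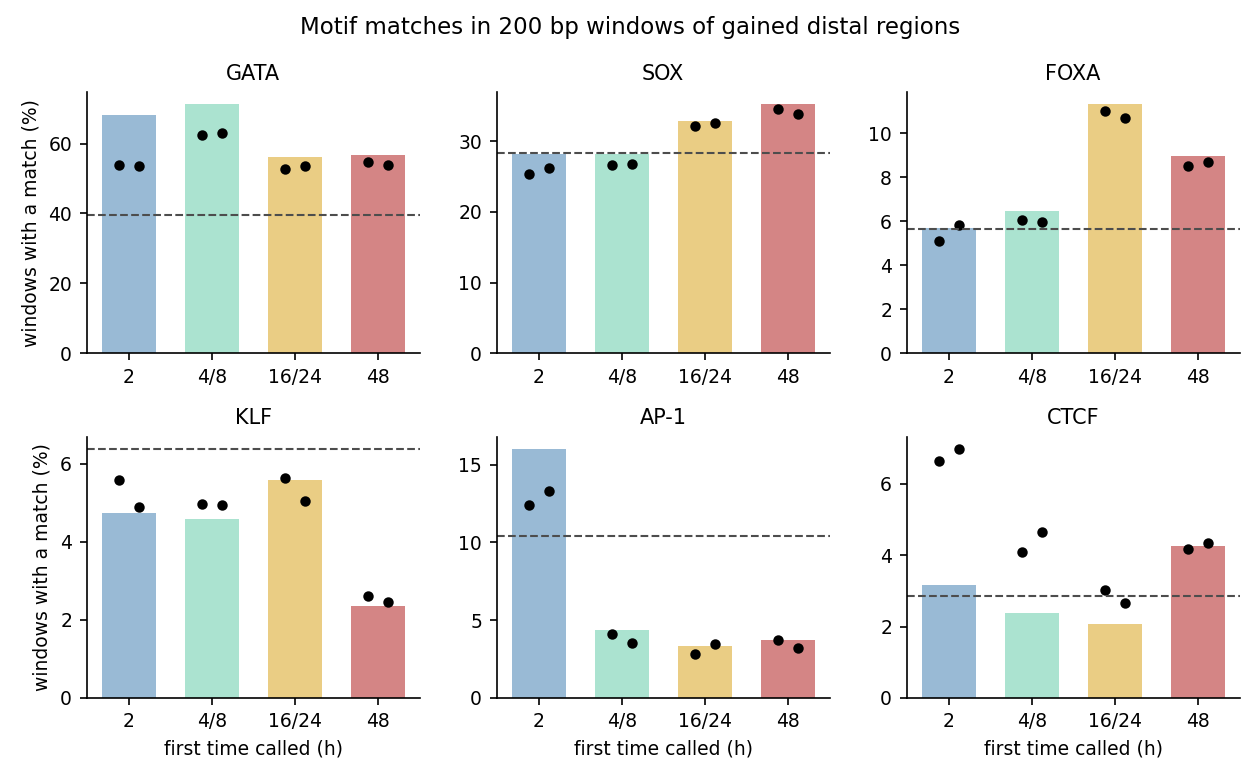
Percent of central 200 bp windows with a match to each of 6 motifs (y axes differ), by the first time a gained distal region was called in both libraries. Bars are classes from both libraries, points are classes defined from replicate 1 (left) and replicate 2 (right) alone, and the dashed line is all distal regions. SOX stands at 35.2% in the members and 28.2% in the 2 h class, KLF is lowest in the members, and for GATA in the 2 h class the points lie below the bar.

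Other motifs were searched in the same windows. FOXA motifs (TATTTAC or TGTTTAC), sites of the forkhead factors, lay in 8.95% of late regions, 11.3% of the 16 or 24 h class, 5.68% of the 2 h class and 5.65% of all distal regions. The HNF4 letters AAAGTCCA lay in 1.79% of late regions against 1.37% of the 16 or 24 h class, 0.947% of the 2 h class and 0.911% of all distal regions. AP-1 motifs (TGACTCA or TGAGTCA), sites of FOS and JUN dimers, lay in 16.0% of the 2 h class and 3.73% of late regions, with 10.4% of all distal regions. The 4 or 8 h and 16 or 24 h classes were as low as late regions, at 4.38% and 3.31%. The KLF motif (GGGNGNGGC with C or T at the first N and G or T at the second) is a site of Kruppel-like factors. Its share was not compared at like GC content. The motif was least frequent in late regions among the classes, at 2.35% against 4.73% at 2 h, 4.58% at 4 or 8 h and 5.58% at 16 or 24 h. It was at 2.60% and 2.47% with 1 library per time point, below every value of the other classes, and at 6.38% in all distal regions. The POU octamer ATGCAAAT was at 0.878% against 2.60% of all distal regions, and the ESRR letters TCAAGGTCA at 0.355% against 1.03%. The 16 or 24 h class was also below all distal regions, at 1.28% for the POU octamer and 0.397% for the ESRR letters. The TEAD motif (AGGAATG or GGGAATG) was found in 12.6% of late regions and 10.6% of all distal regions, AACCNGTT of the GRHL factors in 1.35% and 1.61%, and GCCNNNGGC of the TFAP2 factors in 6.23% and 6.71%. The CTCF motif, a site of the factor that anchors chromatin loops, lay in 4.27% of late regions and 2.85% of all distal regions. It lay in 3.17% of the 2 h class, 2.37% of the 4 or 8 h class and 2.07% of the 16 or 24 h class. With 1 library per time point late regions were at 4.17% and 4.35%. The 2 h class was then above them, at 6.65% and 6.98%, and the 16 or 24 h class still below, at 3.03% and 2.66%. The 4 or 8 h class was at 4.09% and 4.65%.

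Motif content varied among the members with the strength of the 48 h peak. In the 1486 members with the lowest mean score percentiles, GATA motifs lay in 49.8% of windows, SOX motifs in 30.3% and FOXA motifs in 7.13%. In the 1481 with the highest these were 67.8%, 43.1% and 9.66%. The CTCF motif went the other way, from 7.60% in the former to 0.675% in the latter. Since late regions had low scores as a class, the classes were also set side by side within ranges of the mean 48 h score percentile. Above percentile 75, SOX motifs lay in 44.5% of 236 late regions, 40.2% of the 16 or 24 h class and 33.6% of the 2 h class. Up to percentile 25, they lay in 29.5% of 2008 late regions, 25.2% of the 16 or 24 h class and 24.5% of the 2 h class. In each of the 4 ranges the SOX share of late regions was above, and the KLF share below, those of the 3 earlier classes. The 16 h and 24 h regions were not split within the ranges. Over all scores the SOX share of the 16 h regions, at 36.2%, was above the 35.2% of late regions. The permuted motif was not counted within these ranges. The lower CTCF share at high scores was not particular to late regions. Between the lowest and the highest range it went from 4.22% to 0.181% in the 2 h class. It went from 3.49% to 0.209% in the 4 or 8 h class and from 3.29% to 0.0956% in the 16 or 24 h class. The GATA share of late regions was below that of the 4 or 8 h class in each range. It was also below the 2 h class, at 49.0% against 61.2% in the lowest range, 56.1% against 60.5% and 67.5% against 68.6% in the middle ranges and 69.9% against 78.2% in the highest. The 16 or 24 h class was at 50.0%, 49.8%, 59.1% and 64.1%, below late regions in each range but the lowest. The ranges were compared only for classes from both libraries. Over all scores, the GATA difference from the 2 h class did not hold with 1 library per time point.

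**Figure D4:**
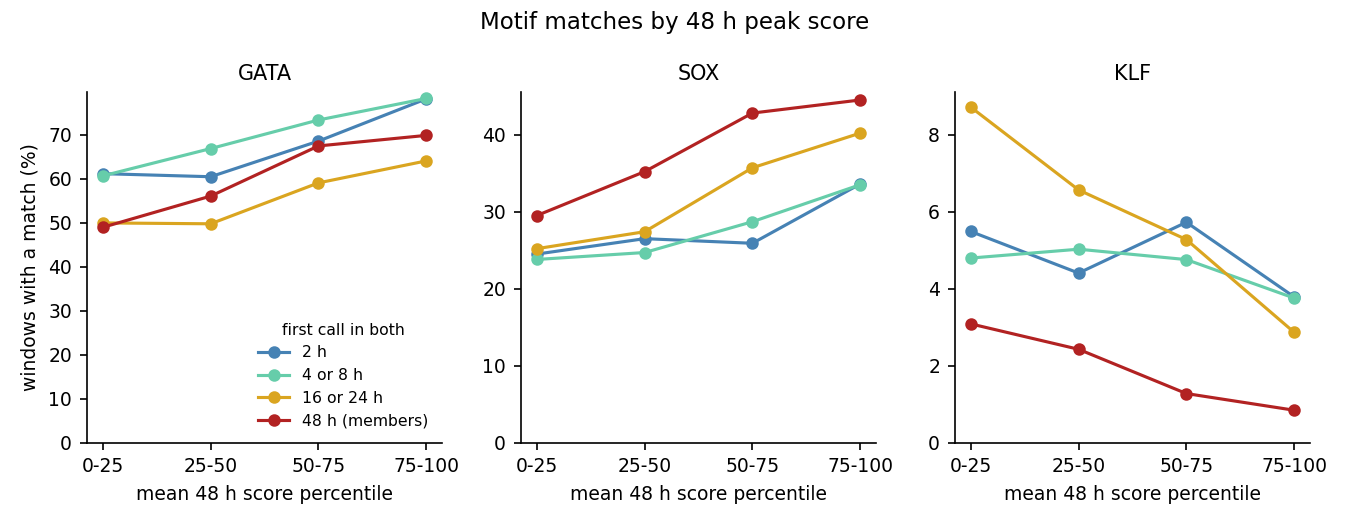
Percent of central 200 bp windows with a GATA, SOX or KLF motif (y axes differ), by range of the mean score percentile over both 48 h libraries and by the first time called in both libraries. SOX in the members goes from 29.5% in the lowest range to 44.5% in the highest, and KLF goes from 3.09% to 0.847%.

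Members with and without earlier single-library calls differed in sequence. GATA motifs lay in 60.6% of the 3801 members with no earlier call and in 42.1% of the 755 members with 2 or more earlier calls. SOX motifs lay in 37.8% and 26.6% of them. The CTCF motif lay in 2.53% of those without an earlier call and 11.9% of those with 2 or more. Median 48 h score percentiles of these members were 34.1 and 33.9 in the pair of libraries without an earlier call, and 30.5 and 30.8 with 2 or more. In all, 4104 members (69.3%) held a GATA or SOX motif, 1337 (22.6%) held both, and 1645 (27.8%) held none of the GATA, SOX, FOXA and HNF4 motifs.

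Matches were concentrated at the centres of late regions. Within 50 bp of the centre there were 253 GATA matches per 1000 late regions per 50 bp, against 101 beyond 400 bp, a ratio of 2.50. The ratio was 2.36 in the 16 or 24 h class, 3.63 in the 4 or 8 h class and 3.20 in the 2 h class. For SOX it was 1.67 in late regions, 1.71 in the 16 or 24 h class and 1.27 in the 2 h class. For FOXA it was 1.95 in late regions and 2.54 in the 16 or 24 h class. The permuted GATA motif had ratios of 0.956 in late regions and 0.753 in the 2 h class.

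**Figure D5:**
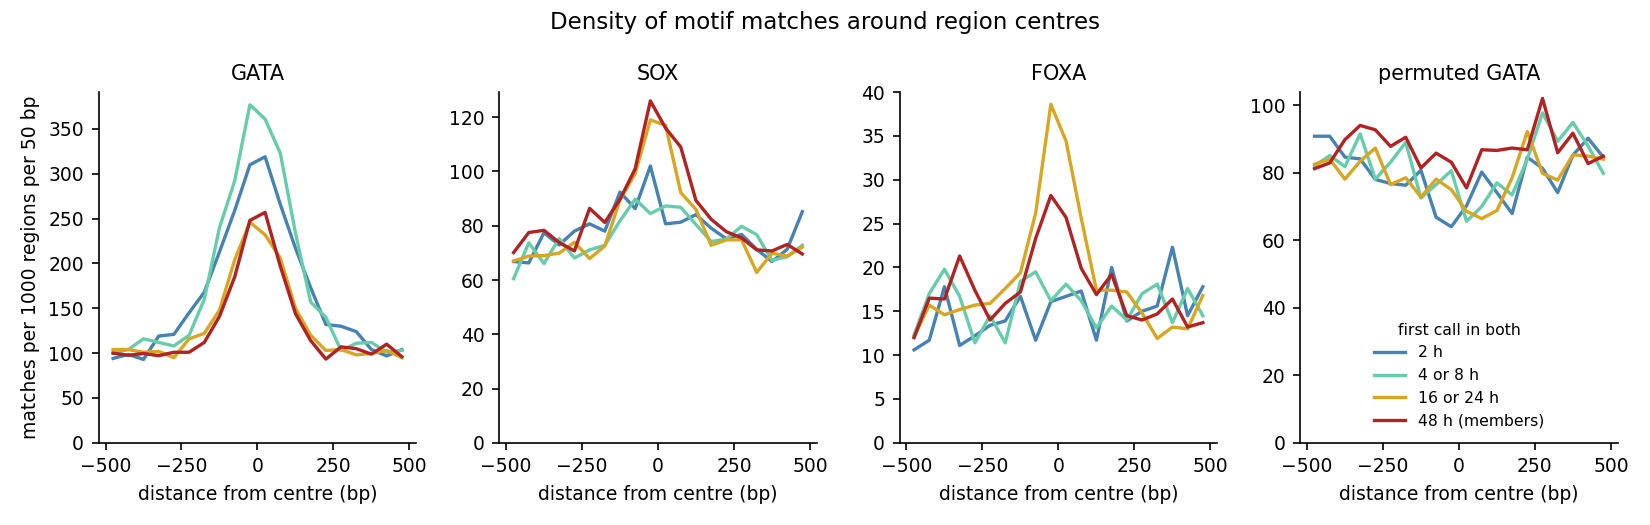
Motif matches per 1000 regions per 50 bp (y axes differ) by distance from the region's centre (x axis, bp), for classes of distal regions by the first time called in both libraries. GATA peaks at the centre in each class, with a ratio of centre to flank of 2.50 in the members and 3.20 in the 2 h class, and the permuted GATA motif shows no central peak.

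At gene level, 4041 members (68.2%) had their nearest protein-coding TSS within 50 kb. They fell to 3153 of the 14856 genes with any distal region so assigned, and 5.70% of all 70849 assigned distal regions were members. Most genes had 1 member (2489 genes), 497 had 2, 124 had 3 and 43 had 4 or more. Of the genes with a member, 1439 also had a distal region that was newly called at an earlier time. The share of all assigned genes with such a region was not taken, so this count cannot be read as a trait of genes with a member. Genes with a member also had more distal regions, with a median of 6 against 3 for all assigned genes. The promoter was already called in both 0 h libraries at 64.9% of genes with a member and 61.3% of all assigned genes. Among the 167 genes with 3 or more members these promoters were 77.8%, but such genes also had more distal regions, with a median of 12 against 3.

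Genes with many late regions had varied roles. Limch1 (ENSMUSG00000037736, chromosome 5), an activator of non-muscle myosin, had 6 members among 22 distal regions, and Arhgef3 (ENSMUSG00000021895, chromosome 14), a guanine nucleotide exchange factor, had 6 among 31. The 10 genes with 5 members were Slc36a1, Fam83b, Gm10309, Mef2d, Tln2, Nav2, Iqsec1, Mbnl2, Zfp423 and Trio. Slc36a1, a proton-coupled amino acid transporter, was the one whose assigned distal regions were all members, 5 of 5. Tln2, the talin 2 gene that links integrins to actin, had 5 of 20, and Trio, another guanine nucleotide exchange factor, had 5 of 34. Another 31 genes had 4 members, and the 8 of them with the highest share of members among their distal regions were Man1a, a Golgi mannosidase (4 of 5), Prox1, a homeobox factor of liver and lymphatic cells (4 of 7), Fzd4, a Wnt receptor (4 of 8), Myo6, a myosin that moves to the minus end of actin (4 of 8), and Chst15, a sulfotransferase of proteoglycans (4 of 8), with Frmpd1 (4 of 7), Eri3 (4 of 8) and N4bp2l1 (4 of 8). That choice favours genes with few distal regions, since the genes with 4 members had up to 39. The promoter was called in both 0 h libraries at 37 of the 43 genes with 4 or more members, and at each of the 20 genes named here except Gm10309.

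Genes of the PrE held more late regions than genes of the epiblast (Epi), the pluripotent lineage. On the study's list of genes expressed in the PrE of blastocysts, 570 of 579 names matched, and 199 of the 502 genes with assigned distal regions had a member. Members were 308 of 3427 distal regions (8.99%), against 5.70% over all assigned genes. On the study's Epi list, 34 of 201 genes had a member, and members were 45 of 1675 distal regions (2.69%). With 1 library per time point the PrE excess was 3.48 and 3.21 percentage points, and the Epi deficit was -3.21 and -3.57. All newly called classes were frequent near PrE genes, and members made up 33.0% of the newly called distal regions there, against 27.6% near Epi genes and 36.5% near all assigned genes. Of members near PrE genes, 58.1% held a GATA motif and 36.0% a SOX motif, close to the 56.6% and 35.2% of all members.

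Of 9 PrE transcription factors, 3 had members, with 7 members among 83 assigned distal regions (8.43%). Hnf4a, a nuclear receptor of visceral endoderm, had 3 intronic members. They lay at chr2:163532017-163532208 (percentiles 14.6 and 16.6), chr2:163540607-163540898 (52.2 and 48.8) and chr2:163541721-163542145 (26.5 and 26.0), with no call before 48 h, and the latter pair held GATA motifs. Gata4, which shares the GATA motif with GATA6, had 2 intronic members among 18 distal regions, at chr14:63239379-63239810 (55.6 and 51.2) with 2 SOX motifs and at chr14:63261417-63261723 (32.3 and 6.0), the latter also called in 24 h replicate 1. By contrast, 5 distal regions of Gata4 were first called at 4 or 8 h. Sox7, an F-group SOX factor, had 2 intergenic members, at chr14:63938603-63938893 (7.8 and 14) and chr14:63957633-63958220 (46.6 and 40), both with a GATA motif. Gata6, Sox17, Foxa2, Foxa1, Gata5 and Sox18 had no member. Gata6, Sox17 and Foxa2 instead had newly called distal regions of the earlier classes, 3, 6 and 6 of them.

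Other endoderm lists had late regions beside earlier ones, and their shares stood on both sides of the 5.70% of all assigned distal regions. Of newly called distal regions alone, members were 23.1%, 27.7%, 30.0% and 13.6% on these lists, in the order given below. Each was under the 36.5% near all assigned genes. Visceral endoderm transport and secretion genes had 6 members among 72 distal regions (8.33%), while 4, 7 and 9 of their distal regions were first called at 2 h, at 4 or 8 h and at 16 or 24 h. Their members lay near Lrp2, the endocytic receptor megalin, and Slc2a2, the glucose transporter GLUT2, with 2 each, and Cubn, the receptor partner of megalin, and Apoa4, with 1 each. Afp, Ttr, Apob and Apoe had none. Parietal endoderm and basement membrane genes had 13 among 183 (7.10%) beside 5, 14 and 15 of the earlier classes, with 4 at Lamc1 and 2 at Lamb1, both subunits of laminin, 2 at Pth1r, the receptor of parathyroid hormone and related peptide, and 1 each at Lama1, Col4a1, Nid2, Hspg2 and Serpinh1. The member 1263 bp from the Pth1r TSS, at chr9:110745421-110746166, had percentiles of 77.4 and 80.9 and no earlier call. Endoderm receptors and signalling genes had 9 among 150 (6.00%) beside 4, 10 and 7 of the earlier classes, with 3 each at Pdgfra and Fgfr3 and 1 each at Ihh, Bmp2 and Ptch1. Pdgfra marks the PrE, and its members had percentiles of 17.5 to 24.5 in replicate 1 and 24.3 to 34.7 in replicate 2. The Ihh member at chr1:74949700-74950406 stood higher, at 74.3 and 74.5, and was called before 48 h in 24 h replicate 2 alone. Epithelial adhesion and polarity genes had 3 members among 108 (2.78%) beside 6, 2 and 11, with 2 at Tjp1 and 1 at Krt8.

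Of the lists of other fates, the trophectoderm list stood above the 5.70% of all assigned distal regions, and the pluripotency, mesoderm and neural lists stood below it. The naive and general pluripotency list had 7 members among 222 distal regions (3.15%), 3 at Tfcp2l1, 2 at Tbx3 and 2 at Zfp42, while Nanog, Sox2, Pou5f1, Klf4 and Esrrb had none. The Tfcp2l1 member at chr1:118595386-118595836, with 2 GATA motifs, had percentiles of 77.8 and 78.7. Trophectoderm genes had 7 among 98 (7.14%), with 2 each at Gata3, Tead4 and Tfap2c and 1 at Eomes. Mesoderm genes had none among 43, and neural genes had 1 among 45, at Neurod1. The shares of single lists rest on few regions and are given as counts, with no test.

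Of 11 members with among the highest scores, the first was an intronic region near Fbxo21, at percentile 99.1 in both 48 h libraries and called earlier in 16 h replicate 1 and 24 h replicate 2. The second, near E2f7, an atypical E2F repressor of the cell cycle, stood at 98.2 and 97.6 with no earlier call. The others lay near Dnase1 (95.1 and 96.6), Gpr21 (94.3 and 94.8), Cald1, an actin-binding regulator of contraction (91.4 and 95.7), Ehd4, an ATPase of endocytic recycling (91.9 and 95.1), Fam78b (93.1 and 93.8), Dram1 (94.3 and 92.0), Ccn1, a matrix-associated signalling protein (90.9 and 93.9), and Palld, the actin-associated palladin (91.9 and 92.3), with 1 at chr2:134183272-134183958 that had no gene within 50 kb (93.7 and 90.3). A GATA motif lay in 10 of these 11 windows, the exception being Palld, a SOX motif lay in 3, and 6 of the regions had no call before 48 h. GATA motifs were frequent at high scores in each class. Above percentile 75 they lay in 69.9% of late regions, 78.2% of the 2 h class, 78.3% of the 4 or 8 h class and 64.1% of the 16 or 24 h class.

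Late regions lay near one another more often than distal regions did in general. Another region first called in both libraries at 48 h lay within 10 kb of 952 members (16.1%), against 10.6% of all distal regions and 15.3% of the 16 or 24 h class. An earlier newly called region lay within 10 kb of 1271 members (21.5%), against 19.6% of all distal regions and 27.3% of the 16 or 24 h class. With 1 library per time point the share near an earlier region was 29.0% and 29.7%. Regions lost by 48 h were less frequent beside members, at 23.5% against 29.3% of all distal regions.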

How the data were processed

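ATAC-seq peak lists of 14 libraries, 2 at each of 7 time points, were analysed. Each list was deposited by the authors with 1 value per peak, taken here as a score on a scale the sources do not state. The authors made the lists with the ENCODE ATAC-seq pipeline on mm10 (GRCm38) and, per the file names, kept peaks at an irreproducible discovery rate of 0.05 between pseudoreplicates of a library, after a blacklist filter. Scores were ranked within a list only. No autosomal peak of 821472 ended past its chromosome in GRCm38. Processing notes also name deepTools, without a version.

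Peaks overlapping by 1 bp or more were merged, and distances were taken to TSSs of protein-coding transcripts of GENCODE M21. Motifs were searched for on either strand within 200 bp windows at region centres. Merging, calling and motif search were tested on simulated data. Members and gene lists were chosen with earlier results of these data known. Genes named were the 20 with most members within 50 kb (ties by the share of their distal regions that were members) and those of the marker lists with members, and regions named were those with the highest mean score percentiles and those of PrE factors, but some genes, and a motif set beside one of them, are not reported here. Marker list genes without members are given as counts or as examples. Alternatives changed the coverage, merging, peak number, TSS distance and definition, window, GC and repeat content, assignment, neighbour distance, ranking and library use. Tools were Python 3.11.15, numpy 2.4.6 and pandas 2.3.3.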

Additional observations from a re-analysis of the deposited data

Results flagged for a closer look

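The rule kept to autosomes. On chromosome X, outside the comparisons above, 163 of 2066 distal regions (7.89%) met the same criteria, against 5.80% on autosomes. These regions were called in neither 0 h library, which is the control level by the rule itself, and they were not described further.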

How the results depend on the processing

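The main differences between late regions and the 2 h class were -11.7 and 7.01 percentage points for GATA and SOX. GATA kept its direction under 10 of 12 alternatives and SOX under 11. GATA reversed without either replicate, at 0.359 and 1.03, and SOX reversed to -10.9 when the whole region was searched. That search gave -20.2 for GATA. Without replicate 1 or 2, SOX was 7.67 to 9.14, late regions were 33.3% to 33.6% of newly called regions, the score gap to the 16 or 24 h class was -23.8 to -23.5, an earlier region lay near 29.0% to 29.7% of members, and the list differences were 3.21 to 3.48 (PrE) and -3.57 to -3.21 (Epi). Single calls at 24 h have no value with 1 library.

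With 50% coverage the share of newly called regions was 40.3%, the score gap -22.6, GATA -14.1 and neighbours 20.8%. With peaks up to 100 bp apart merged these were 36.9%, GATA -9.28, neighbours 19.2% and PrE 3.07. With the 50000 highest peaks of each list the share was 38.7%, single 24 h calls 25.4%, the score gap -19.1, neighbours 20.2%, PrE 3.69 and Epi -4.01. Beyond 5 kb of a TSS, GATA was -11.2, neighbours 20.5% and PrE 2.96. With gene starts only, PrE was 3.53. Windows on the 48 h peak of replicate 1 gave -15.9 for GATA, and windows of middle GC content -13.5 and 8.26 for GATA and SOX. Assignment within 20 kb gave 4.01 for PrE, neighbours within 25 kb 39.4%, and ranking by width a gap of -11.6. For the 3801 members with no call before 48 h, an alternative chosen after seeing the data, the share was 24.0%, the score gap -21.3, GATA -7.76, SOX 9.52, PrE 2.45 and Epi -1.68. The cause of these shifts was not tested.

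No paired analysis was possible because no result here comes from a test, so there is no fit to take a block. Values within replicate 1 and within replicate 2 are those given above with 1 library per time point. The lists give no depth, so calls missing in 1 library cannot be told from calls below its threshold.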

Other observations

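GC content of the windows moved with the motifs. With all distal windows split into 3 parts of about equal size by GC content, 2643 members fell in the lowest and 1291 in the highest. GATA motifs lay in 70.3% of the former and 32.9% of the latter, and SOX in 45.3% and 19.7%. The mean GC content was 48.2% in members and 49.8% in all distal regions. The part of GC content in the motif shares was measured only by the comparison within the middle part, for GATA and SOX. No such comparison was made for KLF or the other motifs. Among members, KLF lay in 0.719% of windows in the lowest part and 6.12% in the highest.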
